A study of Mus musculus with 4 samples.

Results

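A set of 8 genes that mark alternatively activated macrophages was followed through 4 RNA-seq libraries of mouse bone marrow-derived macrophages. The genes were Retnla, Chil3, Mrc1, Mgl2, Clec10a, Cd163, Tgm2 and Ccl24, taken from a list of names, out of 24080 gene symbols in the files. Cells came from C57BL/6 mice that were Batf2+/+ (WT) or Batf2-/- (KO). Batf2 belongs to the BATF group of leucine zipper transcription factors. Bone marrow cells were grown for 6 days with GM-CSF at 10 ng/ml, a growth factor under which macrophages and dendritic cell-like cells both arise, and the cells that adhered were kept. Per the labels, every culture was given interferon-gamma (10 ng/ml, 4 h) and then lipopolysaccharide (LPS, 100 ng/ml) for 0 h or 3 h. The groups are called WT_0h, WT_3h, KO_0h and KO_3h, with 1 library each. By the labels, interferon-gamma and GM-CSF are thus common to all 4 groups, and no IL-4 or IL-13 treatment is named. The labels do not say how the Batf2 allele was made or how many animals a culture came from.

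Macrophages that meet IL-4 or IL-13 take on a state called alternative activation. The cytokines act through the receptor chain Il4ra and the transcription factor Stat6, and the genes induced serve lectin-mediated uptake, matrix repair and defence against helminths. Interferon-gamma and LPS drive the classical state, with nitric oxide and inflammatory cytokines. Of the 8 genes, Mrc1, Mgl2 and Clec10a encode lectin receptors of the cell surface and Cd163 the scavenger receptor for haemoglobin-haptoglobin. Chil3 (Ym1), a chitinase-like lectin, and Retnla (Fizz1 or RELM-alpha), a resistin-like protein, are secreted. Ccl24 is the chemokine eotaxin-2, which attracts eosinophils through Ccr3. Tgm2 is tissue transglutaminase, an enzyme that crosslinks proteins.

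The promoters of Retnla, Chil3, Mrc1 and Mgl2 are shown because the results turn on these members, and that of Chil4 because it is the near copy of Chil3. RefSeq windows of GRCm38.p6 were at hand for 5 of the 8 members, and the windows searched reached 250 bases upstream of the RefSeq start. Each sequence is written 5′ to 3′ on the gene's own strand and stops before the transcribed bases of both annotations used. Capitals mark every match, on either strand, to TTCNNNNGAA, the spacing that Stat6 is known to prefer, to TTCNNNGAA, the spacing of other STAT proteins, to TTGCNNAA (C/EBP) and to GAGGAA (PU.1), the factors of the myeloid lineage. The Retnla stretch lies at chr16:48842359-48842550 on the plus strand, Chil3 at chr3:106167565-106167814 and Chil4 at chr3:106219508-106219729 on the minus strand, Mrc1 at chr2:14229164-14229391 and Mgl2 at chr11:70130107-70130328 on the plus strand.
Retnla: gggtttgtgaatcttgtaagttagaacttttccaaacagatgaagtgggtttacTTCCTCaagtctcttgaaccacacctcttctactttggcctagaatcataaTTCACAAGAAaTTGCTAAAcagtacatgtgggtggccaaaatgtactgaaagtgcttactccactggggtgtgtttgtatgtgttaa
Chil3: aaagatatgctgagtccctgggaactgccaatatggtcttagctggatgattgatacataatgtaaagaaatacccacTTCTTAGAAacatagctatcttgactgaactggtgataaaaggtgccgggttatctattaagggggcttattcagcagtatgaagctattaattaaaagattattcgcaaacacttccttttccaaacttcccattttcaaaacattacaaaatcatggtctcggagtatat
Chil4: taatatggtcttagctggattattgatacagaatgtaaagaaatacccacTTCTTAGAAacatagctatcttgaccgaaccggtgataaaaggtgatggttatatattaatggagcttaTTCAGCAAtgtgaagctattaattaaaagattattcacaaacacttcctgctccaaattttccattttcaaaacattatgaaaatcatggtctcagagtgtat
Mrc1: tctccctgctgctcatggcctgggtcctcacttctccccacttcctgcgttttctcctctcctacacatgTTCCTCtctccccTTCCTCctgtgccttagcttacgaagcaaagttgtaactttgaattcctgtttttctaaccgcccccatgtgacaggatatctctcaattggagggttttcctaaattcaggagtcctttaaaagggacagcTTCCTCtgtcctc
Mgl2: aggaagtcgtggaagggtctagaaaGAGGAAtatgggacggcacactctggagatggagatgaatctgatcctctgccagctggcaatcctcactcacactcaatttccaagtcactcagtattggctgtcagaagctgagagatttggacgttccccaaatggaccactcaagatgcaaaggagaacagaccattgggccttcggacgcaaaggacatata
In Retnla, TTCACAAGAA stands at -145 to -136 from the RefSeq start and TTGCTAAA directly after it at -134 to -127. Chil3 and Chil4 share the letters TTCTTAGAA, at -172 to -164 in Chil3 and at -200 to -192 in Chil4, and 91% of 221 aligned promoter bases were identical. Mrc1 holds TTCCTC, the PU.1 letters read on the other strand, at 3 places.

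Both strands were searched, and TTCNNNNGAA and TTCNNNGAA read alike on both. Of 32851 mouse promoter windows of 250 bases, 5.85% held TTCNNNNGAA, 7.02% TTCNNNGAA, 9.56% TTGCNNAA and 23.3% GAGGAA. Among the 5 members searched, TTCNNNNGAA was in 1 (Retnla), TTCNNNGAA in 1 (Chil3), TTGCNNAA in 1 (Retnla) and GAGGAA in 3 (Retnla, Mrc1 and Mgl2). No match overlapped another. TGANTCA, the letters bound by AP-1 and BATF proteins, was in 0 of the 5 windows and in 6.75% of all windows. A match is a description of letters, and a missing match says nothing about binding elsewhere.

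Levels are FPKM, a read density corrected for how long a transcript is and how deeply its library was read, so they can be compared between genes. With 1 library per group no test was run. Each interval is the deposited 95% one, shifted so that it keeps its relative width around the FPKM. Such intervals cover counting error within a library, and the spread between cultures is unknown. Differences are between values of log2(FPKM + 1), a scale on which changes of low genes look smaller than they are, and folds are ratios of FPKM. To pass the size rule, a gene needed a difference of 1 or more (2-fold), 1 FPKM or more in either library and deposited intervals that were apart. A gene with less than 1 FPKM in both libraries was not tested. Estimated depth was 21.5 M to 32.4 M reads per library, and 9500 to 10696 genes reached an FPKM of 1. Batf2, the targeted gene, stood at 2.63 (WT_0h), 234 (WT_3h), 0.26 (KO_0h) and 10.1 FPKM (KO_3h). All 8 macrophage markers (Adgre1, Csf1r, Cd68, Mertk, Fcgr1, Itgam, Lyz2 and Cd14) were at 1 FPKM or more in every library. Gbp2, a gene that interferon-gamma is known to induce, was at 49.8 and 31.6 FPKM at 0 h (WT, KO) and at 2688 and 2236 at 3 h. Irf1 and Cxcl9, also known targets, were at 12.4 and 0.624 FPKM in WT_0h and at 12.6 and 0.124 in KO_0h, against 419.3 and 1249 in WT_3h and 370.3 and 1058 in KO_3h. These 3 genes were thus far lower at 0 h than at 3 h, although the labels state the same interferon-gamma treatment for both times. By the labels no library is without interferon-gamma, so whether it had acted in the 0 h cultures was not tested. In a difference between 3 h and 0 h, interferon-gamma and LPS therefore cannot be told apart.

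Between 0 h and 3 h the set split in 2 directions in both genotypes. The lectin receptors Mrc1, Mgl2 and Clec10a were lower at 3 h, and Tgm2 and Ccl24 were higher. Ccl24 met the 1 FPKM minimum through the 3 h libraries alone. In WT, 5 of the 6 members tested passed the size rule, 2 higher and 3 lower, where 30.7% of all 10838 genes tested passed, 7.55% higher and 23.2% lower. In KO, 4 of 7 passed, 2 higher (Tgm2 and Ccl24) and 2 lower (Mrc1 and Clec10a), where 35.8% of 10955 genes passed, 7.85% higher and 28% lower. The median difference of the members tested was -0.51 in WT and -0.55 in KO, close to -0.54 and -0.64 over all genes tested. When the libraries were rescaled to a common median over 9018 genes, the all-gene medians moved to -0.07 and -0.08, and the calls of Mgl2 and Clec10a ended in WT and that of Clec10a in KO. The same rescaling moved the share of higher genes among those past the rule, which was 24.6% in WT and 21.9% in KO, to 54.7% and 56.1%.

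Between genotypes, 2 members passed the size rule at 0 h and 0 at 3 h as deposited, and 1 at each time after rescaling. Chil3 and Retnla were the 2 of 6 members tested that passed at 0 h, both higher in KO, beside 1.7% of 10837 genes (1.32% higher, 0.378% lower). Retnla met the 1 FPKM minimum through KO_0h alone, so its pass was nearly fixed by that filter and the count is given as a description. Mgl2 and Clec10a were lower in KO_0h with intervals that did not overlap, at differences short of the rule. At 3 h, 0 of the 7 members tested passed, against 1.42% of 9803 genes (0.724% higher, 0.694% lower). The median difference was 0.08 at 0 h and -0.03 at 3 h, beside -0.00 and -0.07 over all genes tested.

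**Figure D1:**
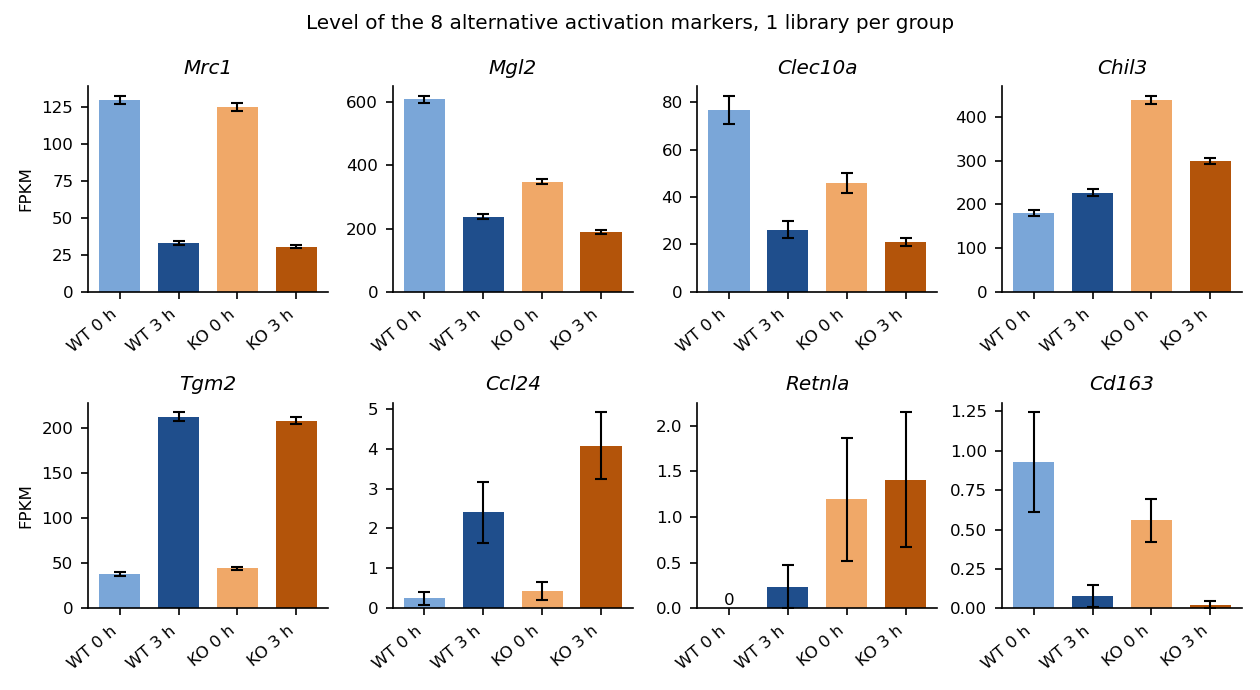
FPKM of the 8 members in the 4 libraries, 1 panel per gene with its own linear axis from 0. Each bar is the single library of a group, and whiskers are its deposited 95% interval, shifted to the FPKM. Mgl2 spans 189.6 to 609.5 FPKM and Chil3 179.7 to 438.7, while Retnla, Cd163 and Ccl24 stay below 5 in every library.

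Mrc1, the mannose receptor that takes up glycoproteins and microbial sugars, lies at chr2:14229414-14332023 on the plus strand and has 30 exons. Its level was 129.7 FPKM in WT_0h (interval 126.9 to 132.5), 32.9 in WT_3h (31.5 to 34.3), 124.7 in KO_0h (122.1 to 127.3) and 30.5 in KO_3h (29.4 to 31.7). Both 0 h libraries were high and both 3 h libraries low, with no overlap between the times and with overlapping intervals between the genotypes at each time. The level at 3 h was 3.94-fold lower in WT and 4.08-fold lower in KO, differences of -1.95 and -2.00 that both passed the rule and were -1.41 and -1.36 after rescaling. Only 3.25% of the genes tested had a lower difference in WT and 3.63% in KO. The difference between these 2 values was -0.05, with a propagated interval of -0.14 to 0.04, and 0.05 after rescaling.

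Mgl2 and Clec10a encode the paired macrophage galactose-type lectins, which bind terminal galactose and N-acetylgalactosamine. They are neighbours on chromosome 11, Mgl2 at chr11:70130357-70137542 and Clec10a at chr11:70166623-70170836, both on the plus strand, with 10 exons each and 29.1 kb between them. Mgl2 was the most abundant member in both WT libraries by its value. Its level was 609.5 FPKM in WT_0h (598.6 to 620.5), 237.5 in WT_3h (229.1 to 246.0), 348.4 in KO_0h (340.4 to 356.5) and 189.6 in KO_3h (184.3 to 194.9). The 4 intervals did not overlap, and WT was above KO at both times.

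Clec10a showed the same order of libraries at a lower level. It was at 76.7 FPKM in WT_0h (70.7 to 82.7), 26.2 in WT_3h (22.6 to 29.7), 45.8 in KO_0h (41.6 to 49.9) and 21.1 in KO_3h (19.5 to 22.8). Here the genotypes were apart at 0 h and overlapped at 3 h.

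At 0 h, Mgl2 was 1.75-fold and Clec10a 1.68-fold lower in KO, differences of -0.81 and -0.73 that missed the size rule. Mgl2 was nevertheless among the lowest 0.904% and Clec10a among the lowest 1.11% of all genes in that comparison. At 3 h the differences between genotypes were -0.32 for Mgl2 and -0.30 for Clec10a. Mgl2 was 2.57-fold lower at 3 h than at 0 h in WT (-1.36) and 1.84-fold lower in KO (-0.87), and Clec10a 2.93-fold (-1.52) and 2.17-fold (-1.08). After rescaling these were -0.82 and -0.23 for Mgl2 and -0.99 and -0.46 for Clec10a. The difference between the time differences was 0.48 for Mgl2 (0.40 to 0.56) and 0.44 for Clec10a (0.16 to 0.71), short of the rule, which 0 of 7 members and 2.37% of 11118 genes passed (0.935% higher, 1.44% lower). For both genes the genotypes thus lay nearer to each other at 3 h.

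The ratio of Mgl2 to Clec10a was 7.94 and 9.08 in WT and 7.61 and 8.98 in KO (0 h, 3 h). The 2 transcripts are alike, with 86.5% identity over 1300 aligned bases, and 15.7% of the 50-base windows of Mgl2 occur in Clec10a, so reads from those windows cannot be placed by sequence. Clec10a has 2 entries in the files, at the same locus. They were at 41.8 and 34.9 FPKM in WT_0h, 13.4 and 12.7 in WT_3h and 24.7 and 21.1 in KO_0h, but 21.1 and 0 in KO_3h. Entries are summed here for every gene. With the higher Clec10a entry alone, the KO minus WT value at 3 h turned from -0.30 to 0.62 and the KO difference between times went from -1.08 to -0.21.

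Lectins listed with these receptors followed in part. Of the 8 mannose and galactose lectins, 6 were tested in WT over time and 5 passed lower, the 3 members with Cd209a (DC-SIGN, 6.46 to 0.364 FPKM) and Clec4a2 (57.2 to 26.4). In KO, 4 of 5 passed lower. Over all genes tested, 23.2% passed lower in WT and 28% in KO. After rescaling, 2 of 6 in WT and 2 of 5 in KO passed lower, where 1051 and 1098 of all genes did. How many genes were tested after rescaling is not given, so the all-gene counts cannot be read as shares. At 0 h, Cd209a was also lower in KO (2.13 against 6.46, difference -1.26). It was the 1 of 6 tested that passed, beside 0.378% of all genes that passed lower.

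Markers of dendritic cells, which also carry Mgl2 and Clec10a, were mostly lower beside them in KO at 0 h, but not over time. Of 9 dendritic cell markers tested at 0 h, 8 were lower in KO with a median of -0.77, and 2 (Cd209a and Ccl22) passed the rule. The share of all genes tested that passed lower there was 0.378%. Summed over 11 markers the level was 6427 FPKM in WT_0h, 5607 in WT_3h, 3955 in KO_0h and 5559 in KO_3h. Ccl17 had 4348, 2881, 2553 and 2354 FPKM of it. Over time, 5 of 10 markers tested were higher and 5 lower in each genotype. Those that passed were 4 higher in WT (Xcr1, Clec9a, Ccr7 and Ccl22), 4 higher in KO (Xcr1, Ccr7, Ccl22 and H2-Aa) and 2 lower in both (Cd209a and Irf4). Among all genes tested over time, 7.55% passed higher and 23.2% lower in WT, and 7.85% and 28% in KO. Zbtb46, a transcription factor of conventional dendritic cells, was at 7.70, 3.89, 4.73 and 3.20 FPKM, and Flt3 was below 0.1 in every library. In bulk RNA, fewer cells of a type and less RNA per cell cannot be told apart. The part of such cells in the Mgl2 and Clec10a values was not tested.

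Cd163, the haemoglobin scavenger receptor (chr6:124304651-124330527, plus strand, 17 exons), was barely measured. It stood at 0.929 FPKM in WT_0h (0.613 to 1.24), 0.0776 in WT_3h (0.00972 to 0.146), 0.559 in KO_0h (0.422 to 0.696) and 0.0221 in KO_3h (0 to 0.0441). Both 0 h libraries were above both 3 h libraries without overlap, but no library reached 1 FPKM, so no comparison tested it. The differences between 3 h and 0 h were -0.84 in WT and -0.61 in KO, and those between genotypes -0.31 at 0 h and -0.08 at 3 h, with overlapping intervals. Haem handling genes beside it differed widely in level. Hmox1, haem oxygenase, was at 244.9, 143.3, 307.6 and 167.3 FPKM in the order WT_0h, WT_3h, KO_0h and KO_3h. Slc40a1 was at 10.7, 4.61, 10.0 and 3.56 in the same order, and Hpx at or below 0.183 in every library. Of the 5 genes of that list in the files, 3 were tested, and 0 passed between the genotypes at either time. Among all genes tested, 1.7% passed at 0 h and 1.42% at 3 h. Over time Slc40a1 passed lower in both genotypes and Hp passed higher in WT (40.7 to 97.8 FPKM). Of all genes tested, 30.7% passed in WT and 35.8% in KO. After rescaling 1 of the 3 passed higher and 0 lower in each genotype.

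Chil3 had the largest difference between genotypes at 0 h among the members on the log2(FPKM + 1) scale. With a pseudocount of 0.1 Retnla, listed at 0 in WT_0h, had a larger one (3.69 against 1.29). It lies at chr3:106147554-106167564 on the minus strand and has 11 exons. Its level was 179.7 FPKM in WT_0h (173.2 to 186.2), 226.2 in WT_3h (218.0 to 234.3), 438.7 in KO_0h (429.3 to 448.1) and 298.9 in KO_3h (291.8 to 306.0). KO was above WT at both times, and the 4 intervals were apart. At 0 h KO was 2.44-fold higher, a difference of 1.28 (1.22 to 1.34), and 0.886% of genes had a higher one. At 3 h KO was 1.32-fold higher, a difference of 0.40 that missed the rule.

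Over time Chil3 went opposite ways in the genotypes as deposited. It was 1.26-fold higher at 3 h in WT (0.33) and 1.47-fold lower at 3 h in KO (-0.55), with intervals apart in both. After rescaling the WT value was 0.87 and the KO value 0.09, so the direction in KO depends on the scaling. The difference between them was -0.88 (-0.97 to -0.80), lower than in 97.9% of genes and -0.78 after rescaling, and missed the size rule either way.

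Chil4 (Ym2), the near copy of Chil3, lies 33.9 kb away on the same strand. Its FPKM was 24.9, 33.0, 64.4 and 41.0 in the order WT_0h, WT_3h, KO_0h and KO_3h. The Chil3 to Chil4 ratio was 7.21, 6.86, 6.81 and 7.29 in the same order. Transcripts of the pair are 1539 bases each and 94.4% identical, and 18.5% of their 50-base windows occur in both, so the split of reads between them is uncertain. The third chitinase-like gene with a level, Chil1, was at 7.81, 47.3, 28.5 and 194.8 FPKM and was higher in KO at both times (1.74 and 2.02). All 3 passed the size rule higher in KO at 0 h, beside 1.32% of all genes tested. Chia1, Chil6 and Chit1 were below 0.1 FPKM in every library.

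Neutrophils and their precursors are known to make Chil3, and their markers moved with it at 0 h. All 10 markers in the files were higher in KO_0h, with a median difference of 1.11, and 5 of 10 passed the rule (S100a8, S100a9, Ltf, Ngp and Lcn2). The share of all genes tested that passed higher there was 1.32%. Summed, they were at 3747 FPKM in WT_0h, 5819 in WT_3h, 9229 in KO_0h and 5587 in KO_3h, with none at 0. Ngp, a granule protein of these cells, was at 391.9, 624.3, 1129 and 613.2 FPKM. At 3 h the summed level in KO was slightly below that in WT as deposited, while Chil3 was above. The median difference of the markers there was -0.01, and 0.07 after rescaling, so which genotype was higher depends on the scaling. Of the 10 markers, 1 (Mmp8) passed higher, beside 0.724% of all genes tested. The part of these cells in the Chil3 values was not tested.

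**Figure D2:**
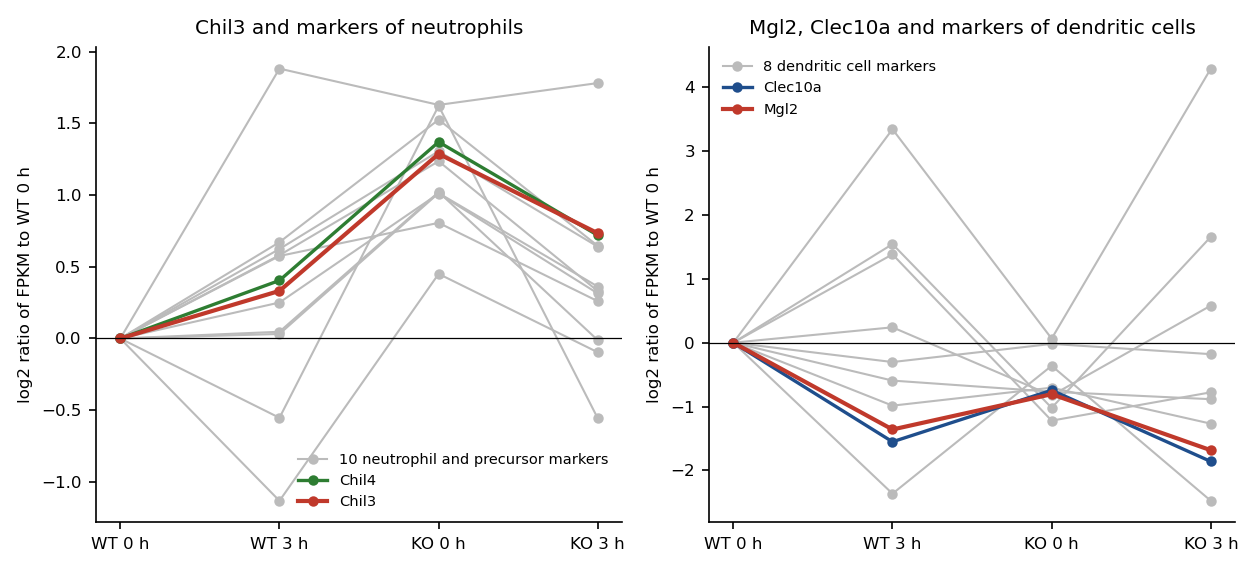
Log2 ratio of FPKM to WT_0h for Chil3 and Chil4 with 10 neutrophil markers (left) and for Mgl2 and Clec10a with the 8 dendritic cell markers at 1 FPKM or more in every library (right). Lines join the 4 libraries of a gene and have no error bars. Chil3 peaks in KO_0h with all 10 markers above the WT level there, and Mgl2 and Clec10a lie below 0 in the other 3 libraries.

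Retnla, secreted by alternatively activated macrophages and known as a Stat6 target, was near the limit of measurement. In the files it lies at chr16:48842552-48844461 on the plus strand, with 4 exons. It was listed at 0 in WT_0h, and stood at 0.237 FPKM in WT_3h (0 to 0.473), 1.19 in KO_0h (0.516 to 1.87) and 1.41 in KO_3h (0.676 to 2.15). Both KO libraries were above both WT libraries, but the deposited interval of KO_0h (0.449 to 1.63) overlapped that of WT_3h (0 to 0.468). The widths of the KO intervals correspond to about 12 and 15 reads. At 0 h the difference was 1.13 and passed the rule, and no fold is given against a library at 0. At 3 h it was 0.96, just short. The call at 0 h ended with a pseudocount of 5 (0.31) and after rescaling (0.97), while rescaling brought the value at 3 h past the rule (1.12).

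Retnlg, the neighbouring resistin-like gene 28.1 kb away that neutrophils are known to make, was at 0.379, 0.231, 2.00 and 0.153 FPKM in the order WT_0h, WT_3h, KO_0h and KO_3h. In KO_0h it passed higher (1.12), a call that rests on about 6 reads in WT and 17 in KO and, as for Retnla, ended after rescaling. Like Retnla, it met the 1 FPKM minimum in that comparison through KO_0h alone, so the call is a description. It was low in KO_3h (-1.38 over time), where Retnla was not. Retn was at or below 0.164 FPKM, and Retnlb was listed at 0 in all 4 libraries.

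Ccl24, the eosinophil attractant (chr5:135569937-135573043, minus strand, 3 exons), was low at 0 h and higher at 3 h. It was at 0.247 FPKM in WT_0h (0.0926 to 0.402), 2.41 in WT_3h (1.64 to 3.17), 0.433 in KO_0h (0.210 to 0.657) and 4.07 in KO_3h (3.24 to 4.91). The times did not overlap, and KO_3h lay above WT_3h with moved intervals that were just apart but deposited ones that overlapped. The increase was 9.74-fold in WT (1.45) and 9.40-fold in KO (1.82), and both passed the rule. Both calls ended with a pseudocount of 5 (0.50 in WT, 0.74 in KO) and with an FPKM minimum of 5, which Ccl24 does not reach. The intervals correspond to about 10, 40, 15 and 95 reads in the order WT_0h, WT_3h, KO_0h and KO_3h. KO was 1.69-fold above WT_3h (0.57). The related eotaxin Ccl11 was at or below 0.107 FPKM, and the receptor Ccr3 at or below 0.629, in every library.

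Tgm2 (chr2:158116405-158146392, minus strand, 13 exons) was the member with the largest increase over time by difference. Its level was 38.0 FPKM in WT_0h (36.1 to 39.95), 212.2 in WT_3h (207.4 to 217.0), 44.5 in KO_0h (42.8 to 46.3) and 207.9 in KO_3h (204.3 to 211.6). The 3 h libraries were high in both genotypes and overlapped each other. It was 5.58-fold higher at 3 h in WT (2.45) and 4.67-fold in KO (2.20), or 2.98 and 2.83 after rescaling. KO was 1.17-fold above WT_0h (0.22, intervals apart), and the difference at 3 h was -0.03, which became 0.06 after rescaling. Tgm1 was lower at 3 h, at 0.658 FPKM against 2.93 in WT and 0.861 against 3.45 in KO. F13a1, the transglutaminase of factor XIII, was at 23.7, 9.84, 10.1 and 5.22 FPKM and was lower in KO_0h (-1.15).

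**Figure D3:**
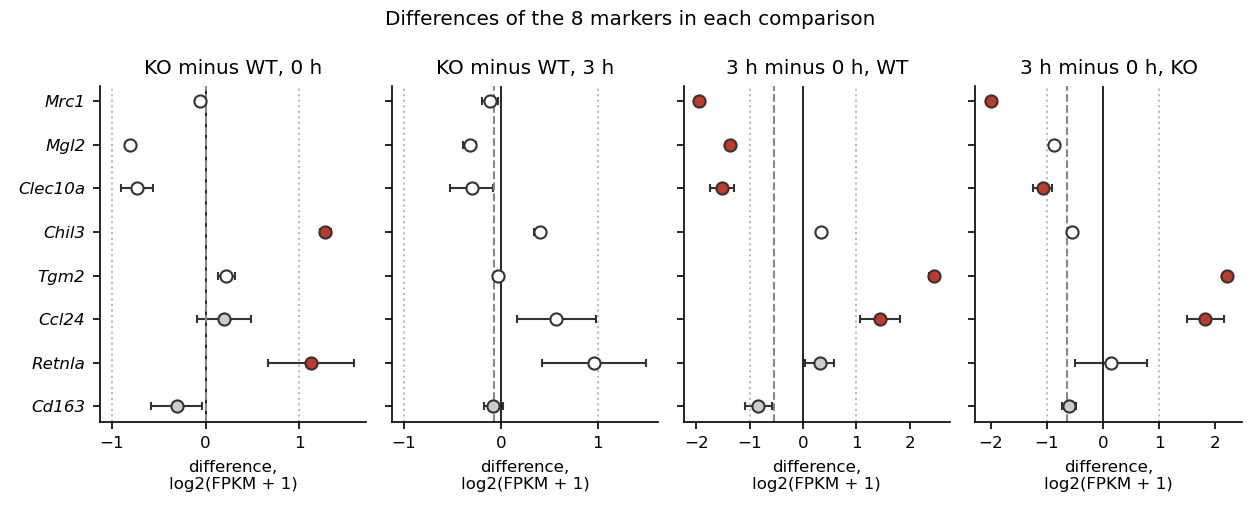
Differences of log2(FPKM + 1) for the 8 members in the comparisons between genotypes and between times, 1 library per group. Red points passed the size rule, white ones did not and grey ones were not tested. Whiskers are intervals propagated from the deposited ones, dotted lines mark the rule's limits and the dashed line is the median of all genes tested. Chil3 (1.28) and Retnla (1.13) pass at 0 h between genotypes, and over time Tgm2 and Ccl24 lie above 1 and Mrc1 near -2 in both genotypes.

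The order of the members by level changed between libraries. In WT_0h it was Mgl2, Chil3, Mrc1, Clec10a, Tgm2, Cd163, Ccl24 and Retnla, with each neighbour apart from the next. In WT_3h Mgl2 and Chil3 overlapped at the top, followed by Tgm2, Mrc1, Clec10a and Ccl24, with Retnla and Cd163 overlapping at the bottom. In KO_0h Chil3 led, before Mgl2 and Mrc1. Clec10a and Tgm2 overlapped there, as did the neighbours among Retnla, Cd163 and Ccl24. In KO_3h the order was Chil3, Tgm2, Mgl2, Mrc1, Clec10a, Ccl24, Retnla and Cd163, with each apart from the next.

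The members did not share a pattern over the 4 libraries. As the distance between centred log2(FPKM + 1) values, Mgl2 and Clec10a were 0.19 apart, Mrc1 and Clec10a 0.84, Mrc1 and Mgl2 1.02, and Mrc1 and Tgm2 4.30. Chil3 was 1.86 to 2.57 from the other 4 members with an FPKM of at least 5. Among 7973 genes, the nearest to Chil3 were Chil4 (0.078), Cstdc5 (0.107) and Stfa1 (0.144), the last a stefin, a cysteine protease inhibitor. Cstdc5 was at 90.0, 116.8, 244.4 and 156.8 FPKM in the order WT_0h, WT_3h, KO_0h and KO_3h.

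Nearest to Mrc1 were Bub1b (0.014), a mitotic checkpoint kinase, Hirip3 (0.043) and Gatc (0.046). Nearest to Mgl2 were Mfsd13a (0.063), Gpr171 (0.124) and Nudt16 (0.149), and to Clec10a Fgf13 (0.113), Igflr1 (0.113) and again Gpr171 (0.126). Nearest to Tgm2 were Dcbld2 (0.049), Cd274 (0.060), which encodes the inhibitory ligand PD-L1, and Birc3 (0.123). Cd274 was at 78.5, 411.6, 90.1 and 424.2 FPKM in the same order of libraries. With 4 libraries the distances are descriptions only.

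The pathway upstream of the set was read from 10 genes of IL-4 and IL-13 signalling. Of the 8 tested, 0 passed between genotypes at 0 h or at 3 h, beside 1.7% and 1.42% of all genes tested. Il4ra, the shared receptor chain, was at 36.7, 32.7, 38.2 and 23.9 FPKM in the order WT_0h, WT_3h, KO_0h and KO_3h, and Stat6 at 86.2, 59.3, 82.0 and 57.5. The cytokines were nearly undetected, with Il4 at or below 0.245 FPKM and Il13 at or below 0.0309. Over time Il2rg passed higher in WT (126.9 to 282.2) and Irs2 passed lower in WT (5.78 to 0.894) and in KO (4.27 to 1.33). Among all genes tested, 7.55% passed higher and 23.2% lower in WT, and 7.85% and 28% in KO. After rescaling 3 passed higher in each genotype, with 1 lower in WT and 0 in KO.

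Of 12 transcription factors and cofactors that are known to act in alternative activation, 9 had lower and 3 higher values at 3 h in each genotype. In both, 7 passed lower (among them Irf4, Klf4, Pparg and Egr2), beside 23.2% of all genes in WT and 28% in KO, and 1 higher, the histone demethylase Kdm6b. The median difference was -1.68 in WT and -1.88 in KO, below the -0.54 and -0.64 of all genes tested, and after rescaling the counts were 7 lower and 2 higher in both. Klf4 was at 45.1, 2.81, 31.5 and 1.51 FPKM and Pparg at 15.0, 2.00, 14.8 and 1.63, in the order WT_0h, WT_3h, KO_0h and KO_3h. Between genotypes 0 of 12 passed at either time, beside 1.7% of all genes tested at 0 h and 1.42% at 3 h.

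Other genes of alternative activation were as divided as the 8 members. Of 19 tested over time in WT, 4 passed higher and 7 lower, and in KO 4 higher and 6 lower. Over all genes tested, 7.55% passed higher and 23.2% lower in WT, and 7.85% and 28% in KO. After rescaling the counts were 4 and 4 in WT and 4 and 5 in KO. The arginine transporter Slc7a2 (20.9 to 303.9 FPKM in WT), the receptor antagonist Il1rn (231.3 to 710.0), Ccl22 and Ch25h were higher at 3 h in both genotypes. Arg1, the arginase that defines the state in mice, was low throughout, at 3.58, 1.06, 6.25 and 0.291 FPKM in the order WT_0h, WT_3h, KO_0h and KO_3h. Cdh1, Socs2, Atp6v0d2, Stab1 and Cd209a were lower at 3 h in both.

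Between genotypes at 0 h, 1 of 19 passed higher (Ch25h, 7.23 against 2.77 FPKM) and 3 lower (Cd209a, Ccl22 and F13a1). Over all genes tested these shares were 1.32% and 0.378%. At 3 h 1 of 17 passed, Pdcd1lg2 (PD-L2), at 13.7 FPKM in KO and 35.8 in WT. Among all genes tested, 0.694% passed lower there. Between the time differences 3 of 19 passed, beside 2.37% of all genes. Ccl22 had the larger increase in KO (149.0 to 954.5 FPKM against 302.3 to 881.4 in WT), and passed higher (1.13). Arg1 (-1.34) and Ch25h (-1.33) passed lower. Of 14 genes of classical activation, 11 passed higher over time in WT and in KO, beside 7.55% and 7.85% of all genes. Their median differences were 6.89 and 7.10. Between genotypes 0 passed at either time, beside 1.7% of all genes tested at 0 h and 1.42% at 3 h. Nos2, the nitric oxide synthase, was at 0.334, 307.3, 0.248 and 340.8 FPKM.

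**Figure D4:**
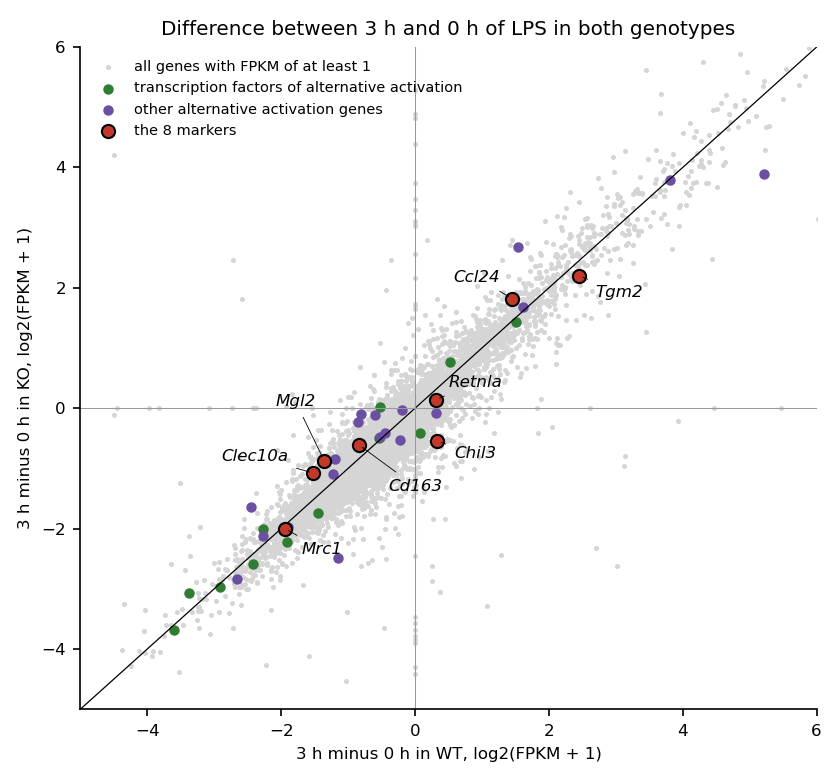
Difference of log2(FPKM + 1) between 3 h and 0 h in WT (horizontal) and in KO (vertical), 1 point per gene, with the line of equal values. A few genes outside the axis range are not drawn. Tgm2 and Ccl24 lie at the upper right, Mrc1, Clec10a and Mgl2 at the lower left, and Chil3 is the member with a value above 0 in WT and below 0 in KO.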

How the data were processed

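RNA of 4 macrophage cultures was read as strand-specific single-read libraries, per the labels' protocols. The deposited values are FPKM per RefSeq entry with lower and upper 95% limits and a status. Reads were aligned with TopHat2 (with Bowtie and SAMtools) and FPKM computed with Cufflinks, per the submitters' processing notes. Tool versions: not given in the sources used here. Those notes name mm9, but 95.61% of entries fell within the same-named gene of GRCm38, so coordinates are given as GRCm38.

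Of 33841 entries per library, 33433 took their symbol from the gene table, 191 from GENCODE's list of RefSeq identifiers, 120 from their position (reciprocal overlap of at least 80%), and 97 had none. FPKM and limits were summed per symbol. In 4.59% to 6.13% of entries the FPKM was not inside the interval deposited with it, hence the shift of printed intervals. Depth was estimated from entries with a lower limit of 0, whose most frequent upper limit was taken as 1 read. Promoters are RefSeq's, and 3 members had no entry in that table.

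All 8 members and every gene of the lists could be named, with, for each member of at least 5 FPKM, the 3 genes nearest over the 4 libraries. Members and lists were chosen with earlier results of these data known. Alternatives were the pseudocount (0.1, 5), the FPKM minimum (none, 5), median rescaling, the single highest entry per gene and no use of intervals. The rescaled counts of the other lists were added after seeing the data. How many genes were tested after rescaling is not given, so no share of all genes stands beside those counts. Analyses ran in Python 3.11.15 with pandas 2.3.3 and numpy 2.4.6.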

Additional observations from a re-analysis of the deposited data

Results flagged for a closer look

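Chil3 and its near copy Chil4 went opposite ways between 0 h and 3 h in the 2 genotypes, which is what singled them out. Chil3 differed by 0.33 in WT and by -0.55 in KO, and Chil4 by 0.39 in WT and by -0.64 in KO, on the log2(FPKM + 1) scale and with intervals apart in each. The difference between these time differences was -0.88 for Chil3, short of the size rule, and -1.03 for Chil4 (-1.26 to -0.80), which passed. After rescaling 0 of the 3 chitinase-like genes tested passed. No statistical test was run on these differences, since each group is 1 library. For Chil3 in KO the direction ended with median rescaling (0.09). No rescaled value of Chil4 is given, but its -0.64 in KO equalled the median of -0.64 over all genes tested. A decrease of Chil4 in KO beyond that of genes in general is therefore not shown, and its direction after rescaling was not tested.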

How the results depend on the processing

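Single members kept their direction and their side of the size rule in 258 of the values recomputed under 7 alternative settings, lost the call in 12, gained it in 3 and changed sign in 7. Part of the 258 could not differ. Members other than Clec10a and Cd163 have a single entry, and a pseudocount cannot turn a sign. The count of members past the rule between genotypes at 0 h went from 2 to 1 with a pseudocount of 5, an FPKM minimum of 5 or median rescaling, with Retnla the gene lost. At 3 h it went from 0 to 1 with a pseudocount of 0.1 (Retnla, 2.17) or rescaling. Over time it went from 5 to 3 in WT with rescaling and from 4 to 2 in KO with a pseudocount of 5. For the difference between time differences it went from 0 to 1 with the single highest entry (Clec10a, 1.36). Rescaling turned the sign of Tgm2 between genotypes at 3 h (0.06), of Chil3 over time in KO (0.09) and of the difference between time differences of Retnla (0.14) and Mrc1 (0.05). The single highest entry turned Cd163 between genotypes at 0 h (0.09), Clec10a at 3 h (0.62) and Cd163 in the difference between time differences (-0.16). Fewer genes tested explains the effect of the FPKM minimum; for the other alternatives the cause was not tested. Retnla, Ccl24 and Cd163 rest on few reads, so their differences between genotypes are limited by depth. No paired analysis was possible because each group has 1 library.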

Other observations

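Genes typical of lung alveolar macrophages, which GM-CSF is known to favour, were all at 1 FPKM or more in every library. Marco, a scavenger receptor, was at 32.5 FPKM in WT_0h, 143.8 in WT_3h, 69.9 in KO_0h and 134.3 in KO_3h. Fabp4, a fatty acid carrier, was at 73.2, 19.1, 107.2 and 22.4 FPKM in the same order, and Fabp5 at 630.6, 292.3, 872.7 and 286.0. Chil3 belongs to this list too. Of its 8 genes, 2 passed the size rule higher in KO_0h, Marco and the member Chil3 itself. Among all genes tested, 1.32% passed higher there. The list did not move as one, with 5 genes higher and 3 lower in KO at 0 h. Siglecf was lower, at 12.8 FPKM in KO_0h against 22.5 in WT_0h (-0.77), and Pparg (-0.02) and Ear1 (-0.01) hardly differed.

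Collagen and other stromal markers summed to 33.4 FPKM in WT_0h, 34.5 in WT_3h, 75.2 in KO_0h and 54.5 in KO_3h. Markers of mast cells, basophils and eosinophils summed to 117.9, 96.9, 117.5 and 64.1 FPKM in the same order, and those of T, B and NK cells to 0.722 to 1.74. The near-equal 0 h sums of the former hide opposite moves. Of 10 tested, 7 were higher and 3 lower in KO, and Hdc passed higher, as did 1.32% of all genes. At 3 h, 2 of 9 passed lower in KO (Prg2 and Epx), as did 0.694% of all genes.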
